A study of Mus musculus with 9 samples.

Results

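The genes of the major histocompatibility complex (MHC) and of antigen processing were followed in the non-tumor liver of MUP-uPA transgenic mice, treated with honokiol or not, and of wild-type mice. They were chosen by name: each probe set whose symbol in the array's annotation starts with H2- or is B2m, Tap1, Tap2, Tapbp, Psmb8, Psmb9, Psmb10, Nlrc5, Ciita or Cd74. Of 22206 probe sets on the array, 43 met the rule, and each gene had 1 probe set. They comprised 25 class I genes, 7 genes of class I peptide processing and assembly, 10 class II genes, and H2-Ke6, which lies in the MHC and encodes a hydroxysteroid dehydrogenase rather than a presenting molecule. Nlrc5 and Cd74 are not analysed here, since no probe set carried either symbol.

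Liver RNA of male C57BL/6 mice aged 40 weeks was hybridised to Clariom S arrays, which read the RNA of a gene from the light of several probes. HNK mice were MUP-uPA transgenic mice injected with honokiol, a compound from magnolia, from week 32 onwards (10 mg/kg, 3 injections per week). MUP mice were MUP-uPA mice on control treatment, and WT mice were wild-type mice on control treatment. All 3 groups were fed a high-fat diet from week 6, and each group had 3 arrays. The MUP-uPA transgene places urokinase-type plasminogen activator under the promoter of a major urinary protein, which is active in hepatocytes, so that the model rests on long-lasting hepatocyte injury. The deposit's description mentions 6 mice, whereas 9 arrays in 3 groups carry labels, and the groups here follow the labels.

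Class I molecules are carried by nearly all nucleated cells and show peptides from inside the cell to CD8 T cells. The immunoproteasome subunits Psmb8, Psmb9 and Psmb10 take the place of constitutive catalytic subunits and cut proteins into peptides, the transporter Tap1/Tap2 moves the peptides into the endoplasmic reticulum, tapasin (Tapbp) tethers the empty class I molecule to the transporter, and B2m is the light chain of the complex. Class II molecules are made chiefly by macrophages, dendritic cells and B cells, show peptides from ingested proteins to CD4 T cells, and depend on the transactivator Ciita. Interferon gamma raises transcription of both classes.

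Values are log2 intensities. The array medians lay between 5.52 and 5.62, and the medians of 5222 negative control rows between 4.91 and 5.10. Of the 43 genes, 29 lay above the negative control median on all arrays, 4 on some arrays and 10 on none, and 28 had a mean more than 1 log2 unit above it (bright genes in what follows). Of 5 hepatocyte markers, Alb, Ttr and Apoa1 lay near the upper limit of the arrays and say little about hepatocyte content, Serpina1c did not pass the test, and Cps1, an enzyme of the urea cycle, rose in HNK against WT (0.94, adjusted p = 0.0469 from limma) and in MUP against WT (1.24, adjusted p = 0.0102). HNK 3 and MUP 2 differed from the other arrays by their skeletal muscle genes, with a median over 16 such genes of 12.57 in HNK 3 and 12.89 in MUP 2, against 4.24 to 4.78 on the other arrays, and results are also given without both. Because whole tissue was measured, fewer cells of a type and less RNA per cell cannot be told apart.

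Promoters of MHC genes are known to carry, in part, elements through which interferon and transactivators such as Ciita act, and 7 stretches of DNA just before the transcription start are shown for the genes on which the results turn. They end 1 base before the start, are written 5′ to 3′ along the gene's strand, and come from RefSeq on GRCm38.p6. Capitals mark, on either strand, an interferon response element (the narrow form GAANNGAAA, or the wide form with GAAA on both sides of 2 free bases), the core of the X2 box (TGACG) and the Y box (CTGATTGG). H2-K1 and H2-D1 are the classical class I genes, at chr17:34000348-34000527 (minus strand) and chr17:35262914-35263093 (plus strand), and H2-Q4 is a class I gene of the Q region, at chr17:35379437-35379616 (plus strand):
H2-K1: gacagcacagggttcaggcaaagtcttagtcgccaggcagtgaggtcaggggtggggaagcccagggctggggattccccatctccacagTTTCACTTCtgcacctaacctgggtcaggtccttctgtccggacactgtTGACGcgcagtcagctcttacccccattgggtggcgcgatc
H2-D1: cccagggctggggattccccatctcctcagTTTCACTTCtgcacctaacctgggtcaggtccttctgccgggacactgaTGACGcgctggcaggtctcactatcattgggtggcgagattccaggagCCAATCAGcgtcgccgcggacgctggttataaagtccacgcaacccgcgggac
H2-Q4: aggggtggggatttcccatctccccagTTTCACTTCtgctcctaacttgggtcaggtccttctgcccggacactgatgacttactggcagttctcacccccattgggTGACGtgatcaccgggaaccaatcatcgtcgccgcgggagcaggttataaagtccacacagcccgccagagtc

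H2-T22, a class I gene of the T region, had the wide form of the response element, at chr17:36042743-36042992 (minus strand):
H2-T22: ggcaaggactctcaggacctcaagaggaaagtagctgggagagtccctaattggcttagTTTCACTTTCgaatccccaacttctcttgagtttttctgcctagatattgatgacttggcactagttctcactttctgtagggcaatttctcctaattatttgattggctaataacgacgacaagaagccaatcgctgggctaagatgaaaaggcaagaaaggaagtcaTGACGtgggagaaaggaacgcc

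H2-Aa and H2-Eb1 encode the alpha chain and the beta chain of different class II molecules, at chr17:34287824-34287953 (minus strand) and chr17:34305737-34305866 (plus strand). In H2-Aa the X2 core occurs on both strands, and its copies overlap (TGACGTCA):
H2-Aa: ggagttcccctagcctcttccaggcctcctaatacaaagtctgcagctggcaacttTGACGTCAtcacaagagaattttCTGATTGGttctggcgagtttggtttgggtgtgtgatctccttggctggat
H2-Eb1: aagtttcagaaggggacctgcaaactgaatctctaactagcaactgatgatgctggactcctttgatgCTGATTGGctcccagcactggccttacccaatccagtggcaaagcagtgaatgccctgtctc

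Tap1 and Psmb9 lie head to head and share the 225 bases between their starts, shown at chr17:34187331-34187555 on the strand of Tap1, so that the left end adjoins the start of Psmb9:
Tap1 and Psmb9: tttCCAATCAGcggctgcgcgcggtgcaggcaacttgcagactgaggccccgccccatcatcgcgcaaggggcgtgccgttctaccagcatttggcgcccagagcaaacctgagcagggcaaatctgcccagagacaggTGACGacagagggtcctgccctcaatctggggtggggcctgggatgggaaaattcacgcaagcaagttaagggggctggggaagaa

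In the H2-K1, H2-D1 and H2-Q4 stretches the marked response element has the same letters. Windows of 250 bases before to 50 after the start were found in RefSeq for 35 of the 43 genes. The Y box occurred in the windows of 18 of the 35 genes (12 class I, 2 processing and 4 class II), against 4.1% of all 32851 windows. The narrow response element occurred in 5 genes (H2-D1, H2-K1, H2-M3, H2-Q10 and H2-Q4; 7.52% of all windows) and the wide one in 3 (B2m, H2-T22 and H2-T23; 3.44%). Neither form matched in the windows of the 8 class II genes. The X2 core occurred in 13 genes, 1 of them class II (20.8% of all windows), and a gamma-activated site, TTCNNNGAA, in 4 (8.3%). These are matches of letters and are not sites shown to be bound.

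The broad pattern was a higher mean level in HNK livers for most of these genes, with a wide spread between the HNK arrays. In HNK against WT, 34 of 43 genes had a higher mean, against 49.3% of all probe sets. In HNK against MUP 35 had a higher mean (48.5% of all), and in MUP against WT 29 (50.5% of all). The mean was highest in HNK, lower in MUP and lowest in WT for 23 genes (12 class I, 6 processing and 5 class II), against 16.4% of all probe sets. HNK 1 and HNK 3 lay above all MUP and WT arrays for the 7 bright class II genes and for Psmb8, Psmb9, Tap1, H2-K1, H2-D1, H2-Q4, H2-Q5 and H2-M3. For these genes HNK 2 lay among the MUP and WT arrays or below them. The 3 comparisons share arrays, so that they are not independent of each other.

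**Figure D1:**
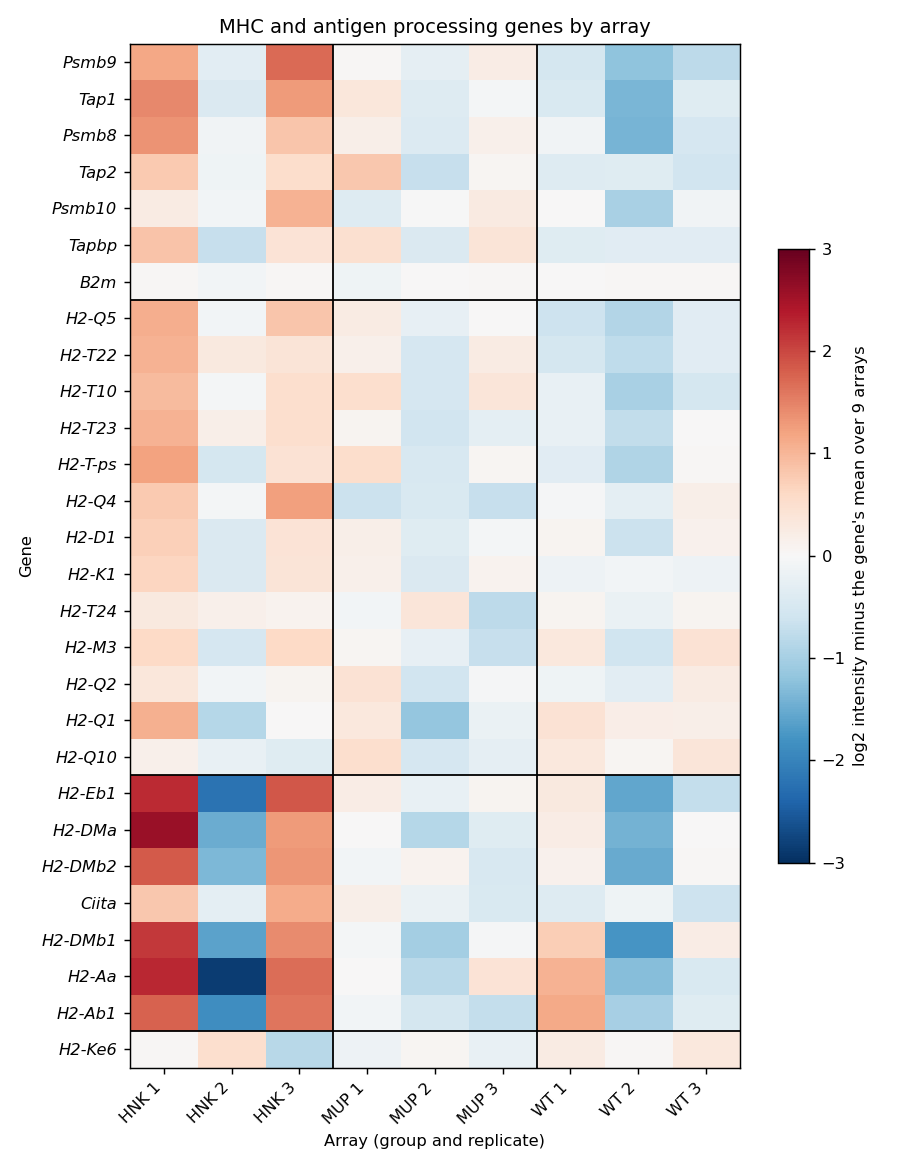
Colour shows the log2 intensity of each of the 28 bright genes on each array minus that gene's mean over the 9 arrays, with arrays in columns (HNK, MUP, WT) and genes in rows, from top to bottom the processing genes, class I, class II and H2-Ke6. HNK 1 and HNK 3 are red over most processing and class II genes, and HNK 2 is blue for the class II genes.

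After adjustment over all probe sets, 1 of the 43 genes passed the test in any comparison. In HNK against WT the class I gene H2-T22 rose, and 0 genes fell, where 0.964% of all probe sets rose and 1.33% fell, 2.29% in all (limma, Benjamini-Hochberg adjusted p under 0.05). In MUP against WT 0 of the 43 passed, where 1.44% of all probe sets rose and 2.13% fell, 3.58% in all, and 0 had an unadjusted p under 0.05 in either direction (7.82% of all higher, 9.52% lower). In HNK against MUP 0 passed, where 0.0045% rose, which is 1 probe set, and 0% fell, and 3 had an unadjusted p under 0.05, all with a higher mean in HNK (2.09% of all higher, 2.27% lower). In HNK against WT 12 genes had a higher mean at an unadjusted p under 0.05 (5 class I, 5 processing, 2 class II; 6.07% of all) and 0 a lower one (8.02% of all). One of the 12, H2-Oa, lay at or below the negative control median on every array. The methods' t-test on the same values, here with the same adjustment, called 0 of the 43 genes in each comparison. Over all probe sets it called 0 in HNK against WT, 0 in MUP against WT and 1 in HNK against MUP. With so few calls on the whole array, its count of 0 says nothing about these genes in particular. The study's methods name the t-test without an adjustment.

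Among the genes of peptide processing, 6 of 7 had a higher mean in HNK and in MUP than in WT. Their median log2 fold change was 0.84 in HNK against WT, 0.44 in HNK against MUP and 0.49 in MUP against WT, beside -0.01, -0.01 and 0 over all probe sets. Without B2m, the 6 genes of the proteasome and the transporter (Psmb8, Psmb9, Psmb10, Tap1, Tap2 and Tapbp) had medians of 1.09, 0.58 and 0.57, and each had a higher mean in all 3 comparisons. None of the 7 passed the test, where 2.29% of all probe sets passed in HNK against WT, 0.0045% in HNK against MUP and 3.58% in MUP against WT. Without MUP 2 and HNK 3 the median of the 7 was 0.77 in HNK against WT, 0.14 in HNK against MUP and 0.83 in MUP against WT, where it was also 0.83 without MUP 2 alone.

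Psmb9, the immunoproteasome subunit LMP2, measured 10.63, 9.14 and 11.16 in HNK 1 to 3, 9.51, 9.20 and 9.68 in MUP 1 to 3, and 8.93, 8.25 and 8.67 in WT 1 to 3. All HNK and all MUP arrays lay above all WT arrays, while HNK 2 was below every MUP array. The log2 fold change was 1.69 ± 0.42 (SE) in HNK against WT, a 3.24-fold difference (adjusted p = 0.0602 from limma), and 0.85 ± 0.42 in both HNK against MUP (adjusted p = 0.998) and MUP against WT (adjusted p = 0.326).

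Psmb8, the subunit LMP7, measured 11.02, 9.56 and 10.51 in HNK livers, 9.85, 9.27 and 9.84 in MUP livers, and 9.57, 8.29 and 9.18 in WT livers. Its groups overlapped, through WT 1 and HNK 2, and the log2 fold change of HNK against WT was 1.35 ± 0.39 (adjusted p = 0.11 from limma). Psmb10, the third immunoproteasome subunit, measured 9.35, 9.01 and 10.14 in HNK livers, 8.72, 9.09 and 9.37 in MUP livers, and 9.11, 8.12 and 8.99 in WT livers. Its groups overlapped too, and the difference between HNK and WT was 0.76 (95% interval 0.03 to 1.50, adjusted p = 0.335 from limma).

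By its median, the constitutive proteasome stayed nearer to its WT level. The median log2 fold change of 13 measured housekeeping subunits was 0.17 in HNK against WT, 0.06 in HNK against MUP and 0.13 in MUP against WT. Of the 13, 0 passed the test, where 2.29% of all probe sets passed in HNK against WT, 0.0045% in HNK against MUP and 3.58% in MUP against WT. The processing genes had no call either, so the counts do not set these lists apart. Psmb6 is the subunit whose place Psmb9 takes. Within each array, Psmb9 minus Psmb6 was -1.35, -3.03 and -0.63 in HNK livers, -2.36, -2.70 and -2.62 in MUP livers, and -3.07, -4.06 and -3.60 in WT livers. The difference between HNK and WT was 1.91 and that between MUP and WT was 1.02, both without overlap of the groups. For each, the exact two-sided permutation test gave p = 0.1, the smallest that 3 arrays against 3 allow, and an adjusted p of 0.3 over 6 such tests. For Psmb10 minus Psmb7, the other such pair examined, the differences were 0.96 and 0.45 (exact permutation p = 0.2 for each).

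Tap1, the transporter subunit that shares its start region with Psmb9, measured 10.82, 8.95 and 10.66 in HNK livers, 9.71, 8.98 and 9.32 in MUP livers, and 8.92, 8.00 and 9.02 in WT livers. HNK 1 and HNK 3 lay above all other arrays, and HNK 2 was below WT 3. The log2 fold change was 1.50 ± 0.45 in HNK against WT (adjusted p = 0.121 from limma), 0.81 ± 0.45 in HNK against MUP (adjusted p = 0.998) and 0.69 ± 0.45 in MUP against WT (adjusted p = 0.477). Its partner Tap2 was dimmer, at 5.98 to 6.88 in HNK livers, 5.41 to 6.90 in MUP livers and 5.53 to 5.73 in WT livers. Tapbp measured 11.31, 9.76 and 10.87 in HNK livers, 10.93, 10.03 and 10.85 in MUP livers, and 10.09, 10.11 and 10.12 in WT livers, with a difference of 0.54 between HNK and WT (95% interval -0.24 to 1.32) and of 0.04 between HNK and MUP (-0.74 to 0.82).

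B2m stood at 19.81 to 19.93 in HNK livers, 19.75 to 19.92 in MUP livers and 19.89 to 19.93 in WT livers. On all 9 arrays its value lay within 0.02 log2 units of the highest value of the array, so that a further increase would hardly be seen, and its differences (-0.02 in HNK against WT, 0.03 in HNK against MUP, -0.06 in MUP against WT) are bounded by that ceiling.

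**Figure D2:**
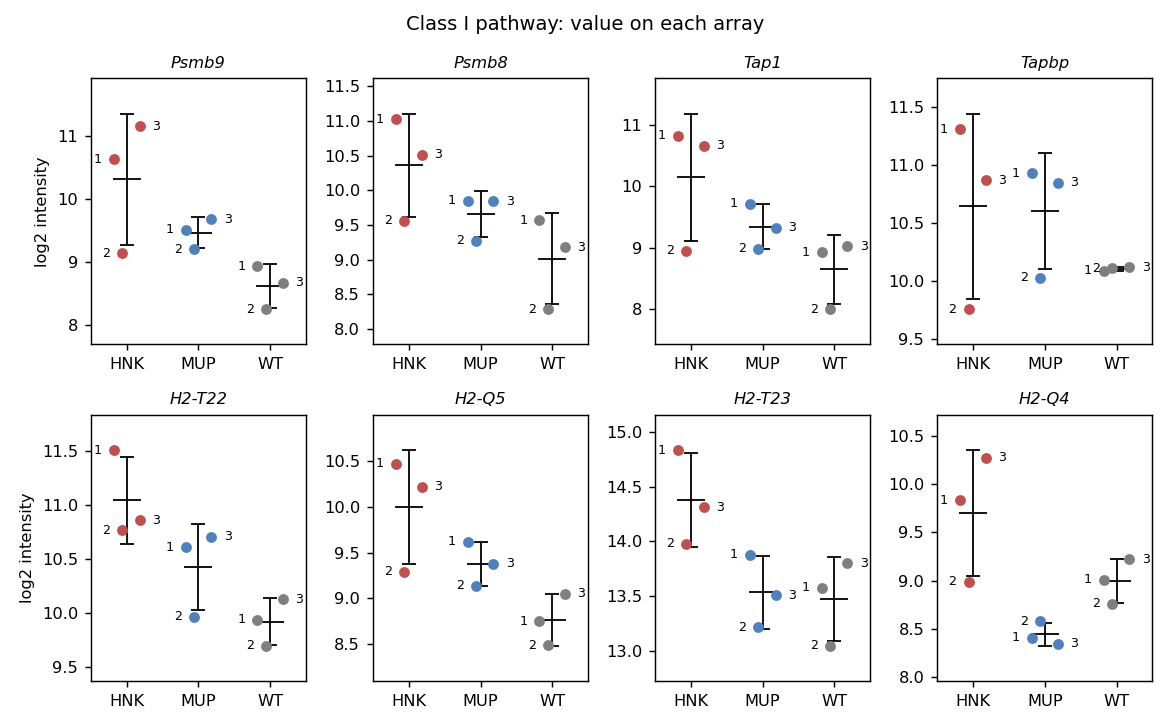
Each panel shows 1 gene of class I processing or class I, with the log2 intensity on the vertical axis, points for the arrays (replicate number beside each), and a horizontal line and bars for the mean and SD of 3 arrays per group. In the Psmb9 and H2-Q5 panels all HNK and MUP points lie above the WT points, and in the H2-Q4 panel all MUP points lie below the rest.

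Over all 25 class I genes the median log2 fold change was 0.19 in HNK against WT, 0.25 in HNK against MUP and 0.06 in MUP against WT. The 7 T region genes had medians of 0.77, 0.33 and 0.33, the 5 Q region genes 0.17, 0.43 and -0.34, and the 11 M region genes, nearly all dim, 0.09, 0.15 and 0.06. The ranges within the regions overlapped, with -0.09 to 1.13 in the T region and -0.39 to 1.23 in the Q region in HNK against WT. The class I median of HNK against MUP was 0.05 without HNK 1 and 0.10 without MUP 2. Among the 13 bright class I genes the medians were 0.38, 0.35 and 0.06. Some class I genes of the Q and T regions are close copies of each other, such as H2-T10 and H2-T22. The probe sequences were not examined here, so that a probe set may read RNA of more than its own gene.

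The classical genes, whose products present peptides to CD8 T cells, had small mean differences between groups, with intervals that also hold larger ones. H2-K1 measured 17.33, 16.25 and 17.07 in HNK livers, 16.85, 16.25 and 16.80 in MUP livers, and 16.53, 16.60 and 16.55 in WT livers. H2-D1 measured 14.40, 13.24 and 14.08 in HNK livers, 13.85, 13.31 and 13.61 in MUP livers, and 13.75, 13.04 and 13.81 in WT livers. For both genes HNK 1 and HNK 3 lay above all MUP and WT arrays, while HNK 2 was at or below the lowest MUP array, so that the groups overlapped. The log2 fold change of HNK against WT was 0.32 for H2-K1 (95% interval -0.23 to 0.88) and 0.38 for H2-D1 (-0.28 to 1.03), and that of HNK against MUP was 0.25 (-0.31 to 0.80) and 0.32 (-0.34 to 0.97).

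H2-T22, a nonclassical class I gene that binds gamma delta T cell receptors, was the 1 gene called. It measured 11.51, 10.77 and 10.86 in HNK livers, 10.61, 9.97 and 10.71 in MUP livers, and 9.94, 9.70 and 10.13 in WT livers, and the HNK arrays lay above all others. The log2 fold change was 1.13 ± 0.26 in HNK against WT (adjusted p = 0.0496 from limma), 0.62 ± 0.26 in HNK against MUP (adjusted p = 0.998) and 0.51 ± 0.26 in MUP against WT (adjusted p = 0.357). The call in HNK against WT lay at the threshold: without MUP 2 and HNK 3 it stood (1.22, adjusted p = 0.0469), while the adjusted p was 0.05 with cyclic loess, 0.0588 without the variance trend, 0.259 with the methods' t-test and 0.0592 to 0.163 in the fits that left out WT 1, WT 2, WT 3, MUP 1, MUP 3, HNK 1, HNK 2 or HNK 3 alone. With MUP 2 alone left out it stood (0.0313).

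H2-T10, a close relative of H2-T22, measured 12.60, 11.59 and 12.15 in HNK livers, 12.16, 11.15 and 12.02 in MUP livers, and 11.44, 10.68 and 11.13 in WT livers. Its HNK arrays lay above its WT arrays, and the log2 fold change was 1.03 ± 0.32 in HNK against WT (adjusted p = 0.141 from limma) and 0.69 ± 0.32 in MUP against WT (adjusted p = 0.295). H2-T23, which encodes Qa-1, a ligand of inhibitory NK cell receptors, measured 14.83, 13.98 and 14.31 in HNK livers, 13.88, 13.22 and 13.51 in MUP livers, and 13.58, 13.05 and 13.80 in WT livers. Every HNK array of H2-T23 exceeded every MUP and WT array, while MUP and WT overlapped. Its log2 fold change was 0.84 ± 0.27 in HNK against MUP (unadjusted p = 0.00876, adjusted p = 0.998 from limma), 0.90 ± 0.27 in HNK against WT (adjusted p = 0.119) and 0.06 ± 0.27 in MUP against WT (adjusted p = 0.941).

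In the Q region the genes went different ways. H2-Q5 measured 10.47, 9.29 and 10.22 in HNK livers, 9.62, 9.14 and 9.38 in MUP livers, and 8.75, 8.49 and 9.05 in WT livers. All HNK and MUP arrays of H2-Q5 were above all WT arrays, and the log2 fold change was 1.23 ± 0.30 in HNK against WT (adjusted p = 0.0565 from limma) and 0.62 ± 0.30 in both MUP against WT (adjusted p = 0.32) and HNK against MUP (adjusted p = 0.998).

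H2-Q4 measured 9.83, 8.99 and 10.27 in HNK livers, 8.41, 8.58 and 8.35 in MUP livers, and 9.01, 8.76 and 9.22 in WT livers, so that the MUP arrays were the lowest of all and HNK and WT overlapped. It had the smallest unadjusted p of the 43 genes in HNK against MUP, with a log2 fold change of 1.25 ± 0.29 (2.38-fold, unadjusted p = 0.00113, adjusted p = 0.914 from limma), and -0.55 ± 0.29 in MUP against WT (adjusted p = 0.373). H2-Q10, which encodes a class I molecule secreted by the liver, was bright throughout, at 16.17, 15.79 and 15.66 in HNK livers, 16.52, 15.51 and 15.75 in MUP livers, and 16.34, 16.07 and 16.39 in WT livers. Its means were lower in both transgenic groups than in WT, with log2 fold changes of -0.39 in HNK against WT (95% interval -0.93 to 0.14) and -0.34 in MUP against WT (-0.88 to 0.19). A further probe set, which carries no symbol in the platform annotation and which the study names H2-Q7 among genes it selected on these arrays, measured 10.47, 9.04 and 10.27 in HNK livers, 9.50, 9.44 and 9.49 in MUP livers, and 8.30, 8.03 and 8.81 in WT livers. It is outside the 43. The selection was made on MUP against WT, where the difference was 1.09 (adjusted p = 0.112 from limma) and its direction is fixed by that choice. The difference between HNK and WT, which shares the WT arrays, was 1.54 (adjusted p = 0.038).

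Counted without a model, 7 genes had every HNK array above every WT array (5 class I: H2-T22, H2-Q5, H2-T10, H2-T23 and H2-T24; 2 processing: Psmb9 and Tap2), against 9.37% of all probe sets, and 0 had the reverse (11.1%). In HNK against MUP the groups did not overlap for 3 genes, H2-Q4, H2-T22 and H2-T23, all higher in HNK (4.11% of all), and for 0 in the reverse direction (4.48%). In MUP against WT, H2-Q5 and Psmb9 were higher without overlap (11% of all) and H2-Q4 was lower (12.5%). No class II gene separated any pair of groups.

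The remaining class I genes overlapped between HNK and WT, apart from H2-T24, and none passed the test. H2-T-ps, a T region pseudogene, ranged from 10.58 to 12.31 in HNK livers, 10.64 to 11.65 in MUP livers and 10.21 to 11.15 in WT livers. H2-Q1 was at 9.30 to 11.22 in HNK livers, 8.98 to 10.45 in MUP livers and 10.33 to 10.58 in WT livers, with the lowest value in MUP 2, and H2-Q2 was at 8.77 to 9.20 in HNK, 8.29 to 9.30 in MUP and 8.55 to 9.11 in WT. H2-T24 was at 7.37 to 7.55 in HNK livers, 6.49 to 7.63 in MUP livers and 7.06 to 7.36 in WT livers, a difference of 0.19 between HNK and WT (95% interval -0.41 to 0.79). H2-T3, which encodes the thymus leukemia antigen, was dim, at 5.42 to 6.60 over all arrays. Of the 11 M region genes, 10 were not bright, and H2-M3, which presents formylated bacterial peptides, measured 6.71 to 7.82 in HNK livers, 6.53 to 7.27 in MUP livers and 6.63 to 7.66 in WT livers. H2-M1, H2-M5, H2-M9, H2-M10.2, H2-M10.4, H2-M10.6, H2-M11 and H2-Bl, with the class II genes H2-Eb2 and H2-Oa, did not exceed the negative control median on any array. H2-M10.1 and H2-M10.3 exceeded it on some arrays and H2-M10.5 on all. H2-Ke6 was at 6.47 to 7.81 in HNK livers, 7.09 to 7.36 in MUP livers and 7.34 to 7.61 in WT livers.

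**Figure D3:**
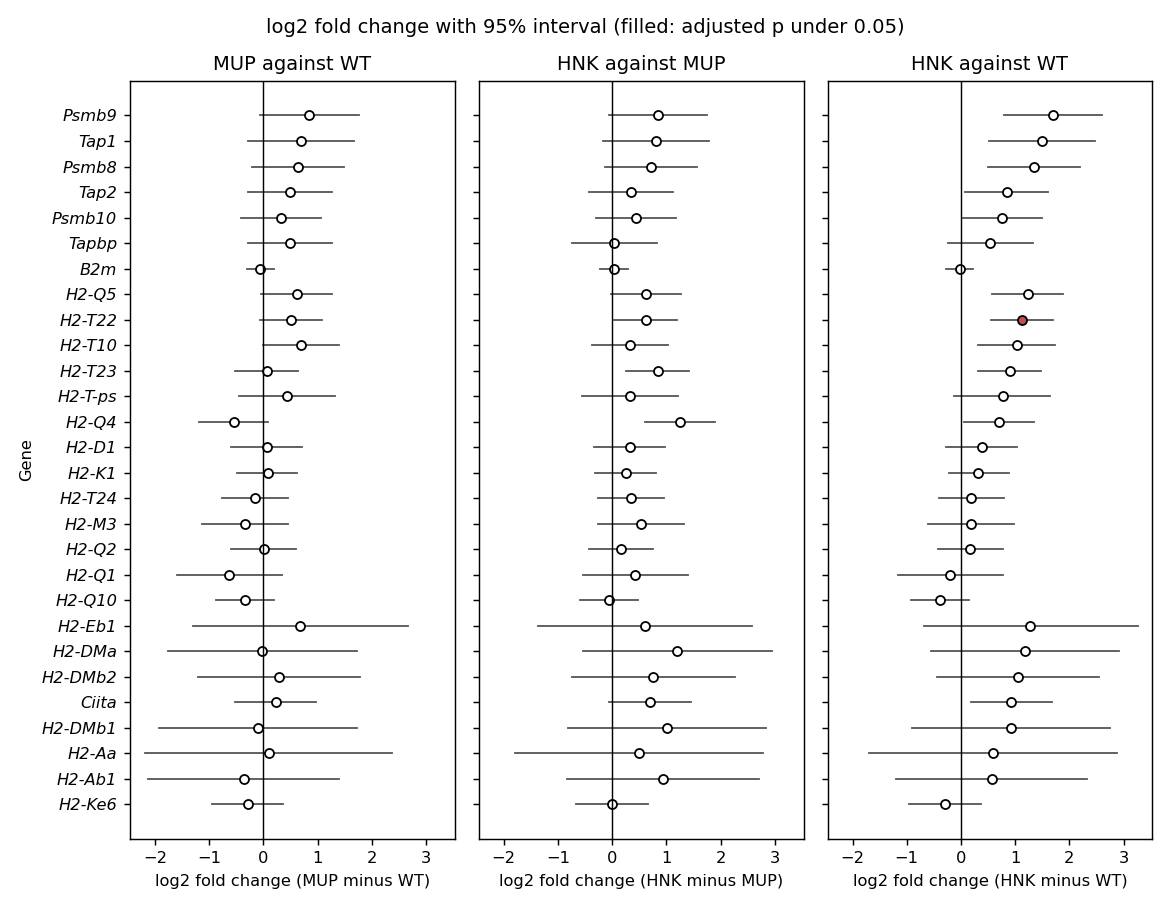
Points show the log2 fold change of each of the 28 bright genes and lines its 95% interval from limma, for MUP over WT (left), HNK over MUP (middle) and HNK over WT (right). The filled point in HNK against WT is H2-T22 at 1.13, the intervals of the class II genes other than Ciita are the widest, and nearly all points of the HNK comparisons lie right of 0.

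The 7 bright class II genes differed more between the HNK arrays than between groups. All 10 class II genes had a higher mean in HNK than in WT, and 8 a higher mean in HNK than in MUP. The median log2 fold change of the 10 was 0.78 in HNK against WT, 0.65 in HNK against MUP and 0.19 in MUP against WT. None of the 10 passed the test in any comparison, where 2.29% of all probe sets passed in HNK against WT, 0.0045% in HNK against MUP and 3.58% in MUP against WT. Of the 7 bright class II genes, HNK 1 was the highest of the 9 arrays for 6 and HNK 3 for 1, whereas HNK 2 was the lowest for 4, WT 2 for 2 and WT 3 for 1. Their median on each array was 11.63, 7.90 and 10.92 in HNK livers, 9.44, 8.50 and 9.48 in MUP livers, and 10.25, 7.74 and 9.72 in WT livers. Single HNK arrays set the size of the difference. In HNK against WT the median log2 fold change over the 10 genes was 1.89 without HNK 2, 0.23 without HNK 1 and 0.50 without HNK 3, and in HNK against MUP it was 1.88, 0.21 and 0.34 without the same arrays. Without WT 2 it was 0.37 in HNK against WT, and without WT 1 it was 1.20. With MUP 2 and HNK 3 left out together it was 0.50 in HNK against WT and 0.28 in HNK against MUP.

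H2-Aa, the alpha chain of I-A, measured 15.10, 10.01 and 14.53 in HNK livers, 12.86, 12.04 and 13.25 in MUP livers, and 13.89, 11.58 and 12.39 in WT livers. The HNK arrays were thus both the highest and the lowest of the 9, with an SD of 2.79, against 0.61 in MUP and 1.17 in WT. The log2 fold change was 0.59 in HNK against WT (95% interval -1.69 to 2.88) and 0.50 in HNK against MUP (-1.79 to 2.78), and it turned to -0.07 and -0.50 without MUP 2 and HNK 3. H2-Ab1, the beta chain of the same molecule, measured 12.61, 8.96 and 12.44 in HNK livers, 10.76, 10.31 and 10.13 in MUP livers, and 11.98, 9.84 and 10.47 in WT livers. H2-Eb1, the beta chain of I-E, measured 13.15, 8.69 and 12.78 in HNK livers, 11.13, 10.68 and 10.98 in MUP livers, and 11.21, 9.36 and 10.19 in WT livers. In both, HNK 1 and HNK 3 were above and HNK 2 below all other arrays. The difference between HNK and WT was 0.57 (-1.19 to 2.33) for H2-Ab1 and 1.28 (-0.69 to 3.26) for H2-Eb1, and H2-Eb1 passed the test when HNK 2 was left out (2.71, adjusted p = 0.0117 from limma).

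For the peptide exchange factors H2-DMa, H2-DMb1 and H2-DMb2 the highest arrays were HNK 1 and HNK 3, and the lowest was HNK 2 for H2-DMa and WT 2 for H2-DMb1 and H2-DMb2. H2-DMa, whose product loads peptides onto class II with H2-DMb, measured 9.08, 5.01 and 7.76 in HNK livers, 6.49, 5.64 and 6.12 in MUP livers, and 6.72, 5.08 and 6.50 in WT livers, and its HNK 2 value was not above the negative control median. H2-DMb1 ranged from 7.90 to 11.63 in HNK livers, 8.50 to 9.48 in MUP livers and 7.74 to 10.25 in WT livers, and H2-DMb2 from 5.06 to 8.25 in HNK, 5.92 to 6.52 in MUP and 4.91 to 6.54 in WT. H2-Oa and H2-Ob, which encode an inhibitor of that exchange, were dim, with H2-Ob at 5.59 to 6.32 in HNK livers, 5.79 to 6.32 in MUP livers and 5.68 to 6.01 in WT livers.

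Ciita, the transactivator of the class II genes, measured 6.90, 5.79 and 7.21 in HNK livers, 6.27, 5.88 and 5.63 in MUP livers, and 5.70, 5.95 and 5.46 in WT livers. HNK 1 and HNK 3 were again the highest arrays, while HNK 2 lay below WT 2. The log2 fold change was 0.93 ± 0.34 in HNK against WT (adjusted p = 0.222 from limma), 0.70 ± 0.34 in HNK against MUP (adjusted p = 0.998) and 0.23 ± 0.34 in MUP against WT (adjusted p = 0.795). Ciita passed in HNK against WT when HNK 2 was left out (1.36, adjusted p = 0.0433).

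**Figure D4:**
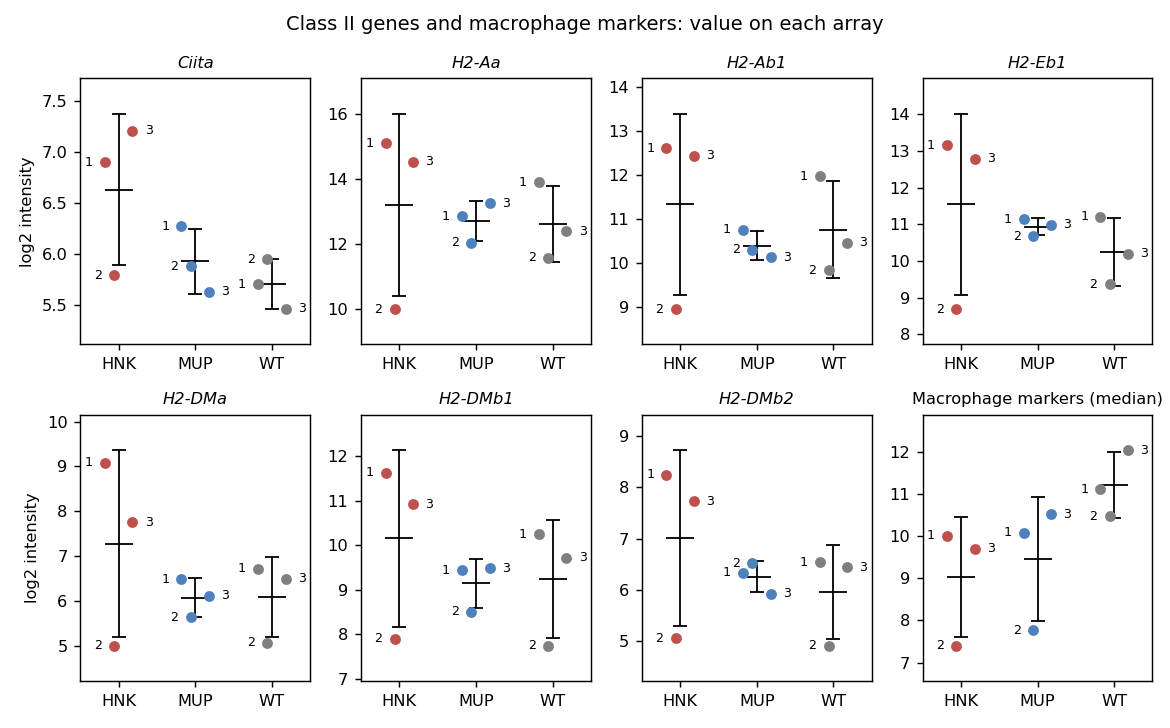
The panels show 7 class II genes and the median of 9 macrophage markers, with log2 intensity on the vertical axis, points for the arrays (replicate number beside each), and lines and bars for the mean and SD of 3 arrays per group. HNK 1 and HNK 3 lie above all MUP and WT points in the class II panels and HNK 2 lies low, whereas the macrophage markers are highest in WT.

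Of 12 measured genes known to be induced by interferon gamma, 0 passed the test. Over all probe sets, 2.29% passed in HNK against WT, 0.0045% in HNK against MUP and 3.58% in MUP against WT. The median log2 fold change of the 12 was 1.43 in HNK against WT, 0.84 in HNK against MUP and 0.53 in MUP against WT. Their median on each array was 11.47, 9.94 and 12.06 in HNK livers, 10.20, 10.26 and 10.15 in MUP livers, and 10.13, 8.71 and 9.68 in WT livers. The median was highest in HNK 1 and HNK 3, but Irf8, Socs1 and Cxcl10 did not have both of these arrays above all others. Irf1, a transcription factor that binds class I response elements, measured 11.04, 9.62 and 10.97 in HNK livers, 10.24, 9.77 and 10.10 in MUP livers, and 9.61, 8.38 and 8.95 in WT livers, a difference of 1.57 between HNK and WT (adjusted p = 0.0623 from limma). Igtp, an immunity-related GTPase, measured 12.38, 9.95 and 12.95 in HNK livers, 11.16, 10.26 and 9.97 in MUP livers, and 10.20, 8.17 and 8.97 in WT livers, a difference of 2.65 (adjusted p = 0.0767).

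Genes known for their induction by type I interferon had a median near 0 in HNK against WT. Of 13 measured, 1 rose in HNK against WT (Bst2, 1.44, adjusted p = 0.0164 from limma) and 2 fell in MUP against WT (Rsad2, -1.66, adjusted p = 0.0203, and Usp18, -1.02, adjusted p = 0.0457). Over all probe sets, 0.964% rose in HNK against WT and 2.13% fell in MUP against WT. The median log2 fold change of the 13 was 0.02 in HNK against WT, 0.36 in HNK against MUP and -0.39 in MUP against WT.

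The next lists are read against the 3.58% of all probe sets called in MUP against WT and 2.29% in HNK against WT. Of 7 measured peptide loading and trimming genes, 1 rose in MUP against WT, Erap1, the aminopeptidase that trims class I peptides (0.87, adjusted p = 0.0446 from limma), and 0 passed in the other comparisons. Of 11 partners of the class II pathway, such as cathepsins and costimulatory molecules, 0 passed, and the medians were -0.43 in HNK against WT, -0.05 in HNK against MUP and -0.66 in MUP against WT. Of 6 other presenting or class I-like molecules, 1 fell in HNK against WT and in MUP against WT: Hfe, the class I-like regulator of iron uptake, measured 8.65, 8.74 and 8.51 in HNK livers, 8.56, 8.49 and 8.55 in MUP livers, and 9.63, 9.45 and 9.60 in WT livers. The WT arrays of Hfe lay above all others, with log2 fold changes of -0.93 in HNK against WT (adjusted p = 0.0241) and -1.03 in MUP against WT (adjusted p = 0.0106).

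Markers of cells that carry class II were read beside these values. The 9 measured macrophage markers had a median of 10.01, 7.40 and 9.70 in HNK livers, 10.08, 7.77 and 10.52 in MUP livers, and 11.12, 10.47 and 12.04 in WT livers, with HNK 2 and MUP 2 low and no marker at or below the negative control median on any array. All 9 had a lower mean in HNK than in WT, 2 of them fell (Adgre1, -1.97, adjusted p = 0.0368 from limma, and Vsig4, -3.03, adjusted p = 0.0423), and Adgre1 also fell in MUP against WT. Several of the 9, such as Clec4f, Vsig4 and Timd4, mark resident liver macrophages, so the list does not stand for every kind of macrophage. Of 9 dendritic cell markers 3 or 4 on each HNK array, 3 to 5 on each MUP array and 3 to 6 on each WT array lay at or below the negative control median, and of 6 B cell markers 3 or 4 on every array. The log2 of the summed level of the dendritic cell markers was 9.30, 8.63 and 9.06 in HNK livers, 8.93, 8.58 and 8.95 in MUP livers, and 8.54, 8.49 and 8.79 in WT livers. HNK 1 and HNK 3 were the highest arrays by this sum, to which Ccr7 (8.23 in HNK 1) gave a large part. By the median of the same markers MUP 3 was the highest (5.80). That median was 5.37, 5.20 and 5.74 in HNK livers and 5.41 in WT 3, so the order depends on the measure. That of the B cell markers was 8.67, 8.58 and 8.33 in HNK livers, 9.01, 8.43 and 8.16 in MUP livers, and 8.30, 8.40 and 8.01 in WT livers. The log2 of the summed level of 12 T and NK cell markers was 10.18, 9.26 and 10.29 in HNK livers, 9.14, 9.26 and 9.50 in MUP livers, and 9.33, 8.80 and 8.86 in WT livers, with HNK 1 and HNK 3 the highest. At or below the negative control median lay 1 to 5 of the 12 on each HNK array, 2 to 5 on each MUP array and 3 to 7 on each WT array. Of these 12, Cd4 rose in HNK against WT (1.56, adjusted p = 0.0192). Of 7 sinusoidal endothelial markers 3 fell in HNK against WT and 1 in MUP against WT. The part of these cell types in the MHC values was not tested.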

How the data were processed

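Total RNA from non-tumor liver was hybridised to Clariom S mouse arrays, and the regimen was taken from the study's methods. The authors deposited normalized intensity values on a linear scale. Their processing notes name RMA and Affymetrix Expression Console, for which the sources used here give no version. Of the 28846 rows, 6640 are controls and were not tested. The log2 of the deposited intensity was taken, and 3 comparisons were fitted on all 9 arrays in R 4.3.3, with lmFit and trend-moderated eBayes of limma 3.58.1, two-sided, with Benjamini-Hochberg adjustment over 22206 probe sets and a call at an adjusted p under 0.05. The number of arrays limits the precision. The labels name no animals. Since the legends of the study give n as livers, 1 array was read as 1 mouse.

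The genes and lists were chosen with earlier results of these data known. Per array values are given for genes called in any comparison, for 11 core genes of the pathway, and for the 4 genes with the smallest unadjusted p in each comparison. Values of Psmb10, Tapbp, H2-DMa and the class-wide ranges serve as examples of their class. As alternatives, each array was left out in turn, MUP 2 and HNK 3 were left out together, the fit was limited to the arrays compared, blocked by replicate number, weighted per array with statmod 1.5.0, run without the dimmest 40 percent of probe sets or without the trend, the values were median-centred or put through cyclic loess, and the methods' t-test was run. The fit was tested on simulated data. Promoter windows came from RefSeq (GRCm38.p6) and motifs were matched exactly on both strands. The files give no build for the probe sets, so no coordinates are given for them.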

Additional observations from a re-analysis of the deposited data

How the results depend on the processing

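The count of the 43 genes called in HNK against WT, 1 in the model used, was 7 with the replicate number as a block, 5 with weights per array, 3 without the dimmest probe sets, 3 with median centring, 0 with cyclic loess, 0 without the variance trend, 0 with the methods' t-test and 0 to 6 when 1 array was left out. Over all probe sets the same settings gave 509 calls in the model used, 586 with the block, 741 with weights, 656 without the dimmest, 490 with median centring, 510 with cyclic loess and 426 without the trend, and 305 without HNK 2. The 7 were H2-T10, H2-T22, H2-T23, H2-Q5, Psmb8, Psmb9 and Tap1, and the 6, without HNK 2, were Psmb8, Psmb9, Tap1, H2-Q5, H2-Eb1 and Ciita. With cyclic loess the adjusted p of H2-T22 was 0.05 (limma). The labels do not say whether the numbers pair the arrays. Over all probe sets, deviations from the group means of arrays with the same number correlated at 0.03, 0.13 and 0.05 in HNK against WT. They correlated at 0.40, -0.16 and -0.29 in HNK against MUP, and at -0.06, 0 and 0.05 in MUP against WT. These values cannot decide whether arrays were paired or batched by number. Replicate 2 had the lowest median of its group for the processing genes (9.14 in HNK, 9.20 in MUP, 8.25 in WT). The same held for the bright class II genes (7.90 in HNK, 8.50 in MUP, 7.74 in WT), and the cause was not tested. The count of the 43 genes called was 0 under every alternative in the other comparisons.

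Over all probe sets the calls in HNK against WT numbered 0 with the methods' t-test and 114 to 565 with 1 array left out. In MUP against WT they numbered 794, 0 with the t-test and 265 to 918 with 1 array left out. In HNK against MUP they numbered 1, 0 with the arrays of both groups alone, 0 without MUP 2 and HNK 3, and 0 to 2 with 1 array left out. The class II median ranged from 0.23 to 1.89 in HNK against WT and from 0.21 to 1.88 in HNK against MUP with 1 array left out.

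Signs that turned belonged to differences within their error. Without MUP 2 and HNK 3, HNK against MUP was -0.04 for H2-K1, -0.50 for H2-Aa and -0.14 for H2-Eb1, and HNK against WT was -0.07 for H2-Aa. With weights per array H2-Q10 was 0.03 in HNK against MUP, and with cyclic loess B2m was 0.04 in HNK against WT. With 1 array left out, the ranges that crossed 0 were, in HNK against WT, -0.05 to 0.01 for B2m, -0.35 to 2.19 for H2-Aa and -0.06 to 1.76 for H2-Ab1. In HNK against MUP they were -0.02 to 0.07 for B2m, -0.26 to 0.25 for H2-Q10, -0.44 to 2.10 for H2-Aa and -0.20 to 2.03 for H2-Eb1. In MUP against WT they were -0.01 to 0.19 for the class I median, -0.06 to 0.27 for the class II median, -0.03 to 0.27 for H2-K1, -0.42 to 0.73 for H2-Aa, -0.82 to 0.24 for H2-Ab1, -0.19 to 0.20 for H2-D1 and -0.15 to 0.22 for H2-T23. The causes were not tested. The probe set with the lowest mean could not be tried, since each gene had 1. Dim genes lie near the negative controls, and their differences are compressed.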
